A study of Scyliorhinus canicula with 6 samples.

Results

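The contig groups described here were abundant in some ventricle libraries of a shark and at 0 in others. A contig is a transcript sequence put together by an assembler from short reads, and a contig group is the set of contigs that the assembler treats as 1 gene. Estimated counts were summed per contig group, rounded, and scaled to the library total to give CPM, the number of counts per 1000000 counts of the library. A contig group belonged to the set when it had 0 counts in 2, 3 or 4 of the 6 libraries and 10 CPM or more in every other library. Of 269971 contig groups, 180 met both conditions. The rule then dropped the 150 longest contig groups, the 150 with most contigs and those at ranks 21 to 220 of mean TPM (a measure of level that is also scaled for length), which removed 0 of the 180, and its limit of 200 was not reached. The 180 were thus chosen by their levels in these libraries, and their zeros and levels are a description. The lowest detected level of the members nearest the threshold was 10.01 CPM, and that of the nearest contig group outside it was 9.98 CPM. Another 400 contig groups at 0 in 2 to 4 libraries had their lowest detected level between 5 and 10 CPM.

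The shark was Scyliorhinus canicula, the small-spotted catshark, which lays eggs, and the animals were juveniles. The 20 °C group was incubated as embryos at 20 °C and the 15 °C group at 15 °C. After hatching, both groups were kept together at 15 °C, for some 5 months, until the ventricle was dissected, and each group has 3 libraries. The labels do not say whether replicates are different animals or clutches, and p-values therefore cover the spread between libraries only. The question was whether embryonic temperature leaves a lasting difference in the heart transcriptome.

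As background, the ventricle is the main pumping chamber of the fish heart and holds muscle, endothelium, connective tissue and blood cells. In an outbred animal the 2 inherited copies of a gene can differ in sequence. A de novo assembler can write such copies, or close duplicates of a gene, as separate contigs of nearly the same length, and an individual that lacks a copy gives no reads for its contig. Whether this applies to any contig group here was not tested. The files give the contigs no gene names, a RefSeq table of 29227 catshark genes holds 0 of the contig names, and cardiac markers could not be checked.

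Depth differed between libraries. The totals were 4137455 to 5310811 estimated counts at 20 °C and 2397973 to 12954558 at 15 °C, with 15 °C replicate 2 the deepest and 15 °C replicate 3 the shallowest. A level of 10 CPM would give 24.0 counts in the shallowest library and 129.5 in the deepest. The deepest library had the most zeros, 106 of 180, and the shallowest had 104. The other libraries had from 55 zeros, in 20 °C replicate 1, to 87, in 20 °C replicate 2. Whether depth bears on the zeros was not tested. At its own lowest detected level, each member would have had at least 62.7 counts over the libraries where it was at 0, with a median of 246 counts. These are sums over all off libraries of a member. The rule's 10 CPM and its 2 or more off libraries fix most of that minimum, so it is no test of depth. Of the 504 zeros, 359 were estimates of exactly 0, and 145 were fractional estimates that rounded to 0, the highest being 0.485. A total of 100 members had an estimate of exactly 0 in every library where they were off.

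Where they were on, most members were of modest and similar level. The mean over the on libraries had a median of 21.1 CPM and ran from 10.6 to 237 CPM, with 82 members under 20 CPM and 18 at 50 CPM or more. CPM is not scaled for length. The highest on library was at a median of 1.67 times the lowest, and this ratio was 2 or less in 121 members and over 4 in 12. Against the 3 counts over the off libraries that a count of 0 allows, the on level was at least 23.6-fold to at least 1349-fold higher, with a median bound of 114-fold. These bounds cover counting error only, and the rule's zeros and 10 CPM make them large in advance.

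The members were mainly single contigs, as were most contig groups of the assembly. Of the 180, 159 held 1 contig, 88.3%, against 55.0% of the 4403 contig groups at 10 CPM or more in all 6 libraries. The share was 78.9% in contig groups at 0 in 1 library and 91.7% in those at 0 in 5. Of all 269971 contig groups, 238394 held 1 contig, so single contigs are not particular to the members. Their longest contig had a median of 1328 bases and ran from 216 to 4588 bases, against a median of 1737 bases in those 4403. In the 21 members with several contigs, 1 contig held a median of 91.1% of the counts.

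On and off states fell into many patterns. With 82 members at 0 in 2 libraries, 52 at 0 in 3 and 46 at 0 in 4, 46 of the 50 possible combinations of off libraries occurred. For comparison, 156 contig groups were at 0 in 1 library and 36 at 0 in 5, with 10 CPM or more in the rest. The most frequent pattern, with 17 members, was 0 in 20 °C replicate 2 and 15 °C replicate 2. The next, with 15 members, was 0 in 20 °C replicate 3 and 15 °C replicate 1. A pattern of 0 in 20 °C replicate 2 and in 15 °C replicates 2 and 3 held 13 members, and 0 in 15 °C replicates 2 and 3 alone held 11. The heatmap of levels shows these patterns as blocks, and all but the last named cross the 2 temperatures.

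**Figure D1:**
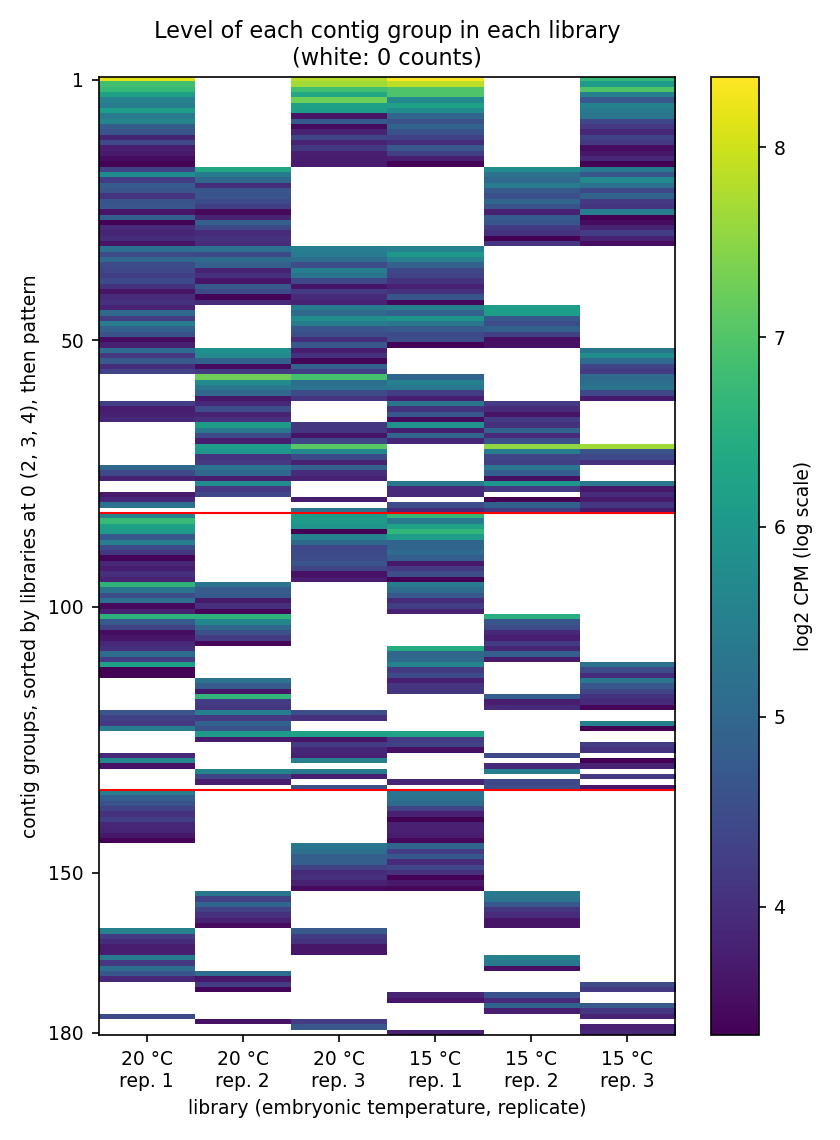
Level of each of the 180 contig groups (rows) in each library (columns), as log2 CPM on the colour scale, with white for 0 counts. Rows are sorted by the number of libraries at 0 (82 rows at 2, 52 at 3, 46 at 4, split by red lines), then by pattern. The topmost block is the 17 contig groups at 0 in 20 °C replicate 2 and 15 °C replicate 2. It holds 7 of the 10 contig groups of highest mean CPM over all 6 libraries, zeros included.

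The most frequent pattern also held many of the highest levels. Mean CPM is taken over all 6 libraries with the zeros included, so it ranks members at 0 in only 2 libraries higher. By the mean over the on libraries, 4 of the 180 were at 100 CPM or more, and 3 of these had this pattern. Of the 10 members with the highest mean CPM, 7 were at 0 in 20 °C replicate 2 and 15 °C replicate 2 and on in the other 4 libraries. For TRINITY_DN51460_c0_g1, a contig of 761 bases, the levels in replicates 1, 2 and 3 were 287, 0 and 226 CPM at 20 °C and 331, 0 and 103 CPM at 15 °C. It was at least 1349-fold higher where it was on, the largest bound of all 180. TRINITY_DN124034_c0_g1, of 1422 bases, was at 114, 0 and 203 CPM in the 20 °C libraries and at 232, 0 and 68.8 CPM in the 15 °C libraries. In both, 15 °C replicate 1 was highest and 15 °C replicate 3 the lowest of the on libraries, and each temperature had 1 library without any count. These 17 members ran from 216 to 4428 bases and all held 1 contig. Summed over the 17, the level was 969 and 1079 CPM in 20 °C replicates 1 and 3 and 1211 and 638 CPM in 15 °C replicates 1 and 3. In a bulk tissue sample, fewer cells of a type and less RNA per cell cannot be told apart.

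Most members at 0 in 3 libraries likewise crossed the temperatures. TRINITY_DN129964_c0_g1, of 1699 bases, was at 96.2, 96.7 and 0 CPM in the 20 °C libraries and at 0, 90.3 and 0 CPM in the 15 °C libraries. Its 3 on libraries lay within 6.35 CPM of each other, so the level was either about 90 to 97 CPM or 0. TRINITY_DN130696_c7_g4, of 226 bases, was at 47.3, 0 and 68.0 CPM in the 20 °C libraries and at 104, 0 and 0 CPM in the 15 °C libraries. Among members at 0 in 4 libraries, TRINITY_DN126461_c0_g1, with 2 contigs of which the longest has 1926 bases, reached 42.0 CPM in 20 °C replicate 1 and 46.2 CPM in 15 °C replicate 2. TRINITY_DN91426_c0_g2, of 219 bases, was at 44.8 CPM in 20 °C replicate 1 and 39.3 CPM in 15 °C replicate 1. Each of these last members was thus on in 1 library of each temperature, at nearly the same level in both.

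The pairs of libraries that shared the most states were of different temperatures, but the ranges within and between temperatures overlapped. The number of members in the same state, on in both or off in both, was 116 of 180 for 20 °C replicate 3 with 15 °C replicate 1 and 113 for 20 °C replicate 2 with 15 °C replicate 2. It was lowest, at 49, for 15 °C replicate 1 with 15 °C replicate 2. Over the 6 pairs of libraries within a temperature the number averaged 73.3 and ran from 49 to 92. Over the 9 pairs between temperatures it averaged 85.3 and ran from 55 to 116. The 180 states in a library are not independent of each other, so these counts describe the libraries.

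**Figure D2:**
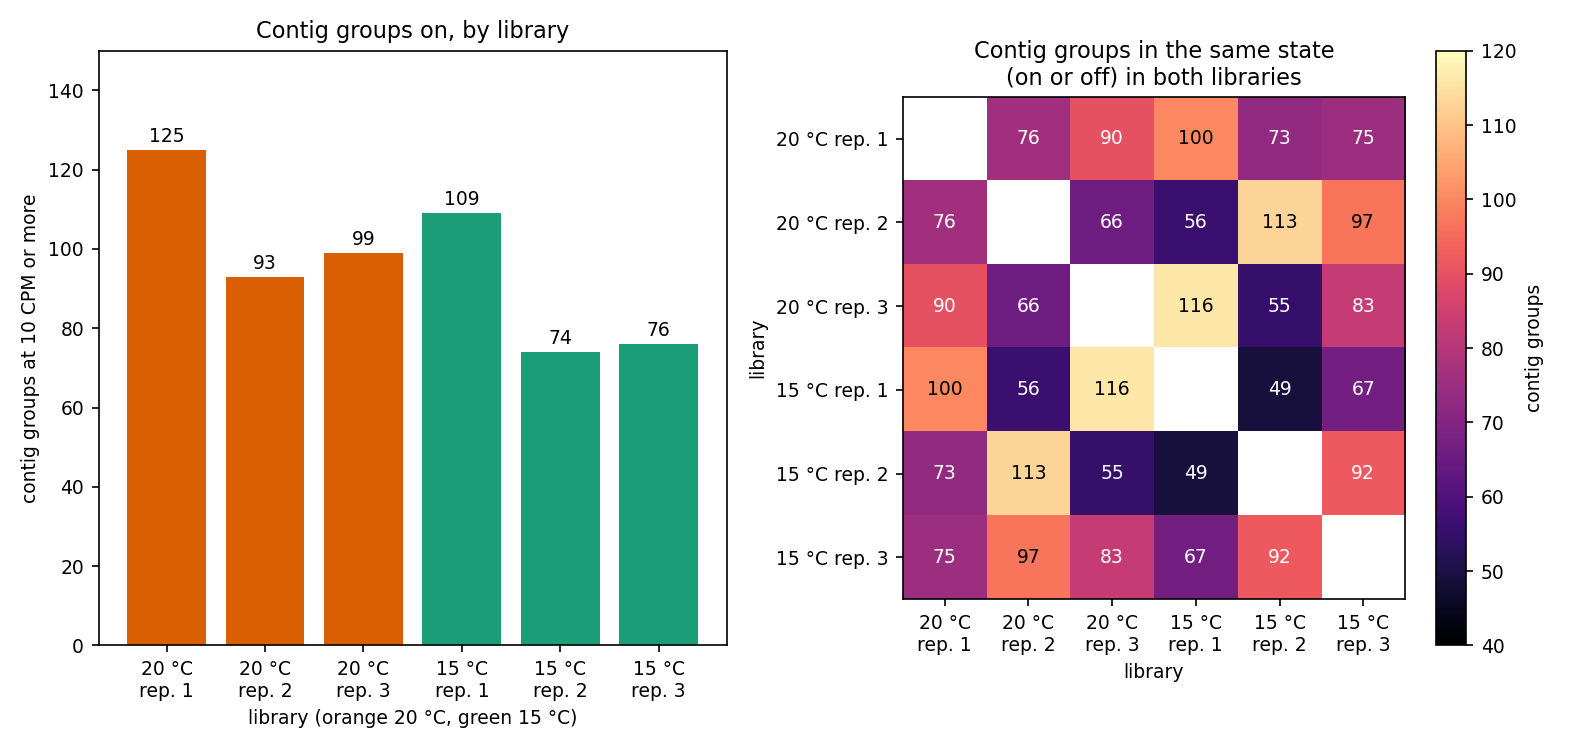
Left, the number of the 180 contig groups at 10 CPM or more in each library, from 74 in 15 °C replicate 2 to 125 in 20 °C replicate 1. Right, the number in the same state (on or off) for each pair of libraries, highest at 116 for 20 °C replicate 3 with 15 °C replicate 1.

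What lay beside a member in the assembly was not used to choose it. The names of contig groups give a read cluster, a component within it and the group, and groups of 1 component share sequence in the assembly. A total of 81 members, 45.0%, were alone in their read cluster, and 99 had at least 1 other contig group there. The share with company, 55.0%, was near the 56.8% of the 4403 contig groups at 10 CPM or more in all libraries. The company differed in kind. A neighbour of the same component with a longest contig within 2% of the member's length was found for 54 members, 30%, against 80 of the 4403, or 1.82%. The shares were 7.05% of the 156 contig groups at 0 in 1 library and 38.9% of the 36 at 0 in 5 libraries. This measure was chosen after the data were seen, and no test was made of these shares. Of the 54, 29 had a neighbour of exactly equal length and 46 of a length within 3 bases. In 11 cases the neighbour was itself one of the 180, so the 54 made 49 distinct pairs.

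The length-matched neighbours were mostly on where the member was off. The neighbour's mean CPM was higher in the libraries without the member in 50 of the 54 cases and lower in 2, and in the other 2 the neighbour had no count at all. It had counts in every off library of the member in 41 cases and 10 CPM or more in every one in 32. In 33 cases the neighbour's levels in the off libraries all lay above those in the on libraries. Across the 6 libraries, the Pearson correlation of member and neighbour CPM was negative in 50 of 52 cases with a median of -0.86, against 39 of 67 pairs with a median of -0.32 for the contig groups on in all libraries. The members' zeros fix part of this spread, and both values of a pair share the library and its total, so the correlation is a description. Reads of similar contigs are also divided between them in the estimates, so the levels of a pair are not separate measurements.

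A first kind of pair was exclusive, with at most 1 of the 2 sequences in any library. In 15 of the 49 distinct pairs no library had both. In 13 of these each sequence occurred alone in some library, in 2 the neighbour had no count at all, and in 7 every library had exactly 1 of the sequences. A detected member had 10 CPM or more by the rule, while a neighbour counted as detected at any rounded count above 0. Some states in these kinds of pair therefore rest on trace counts. For example, TRINITY_DN36587_c0_g1 counted as alone at 0.232 CPM in 15 °C replicate 2. TRINITY_DN130432_c0_g2, of 729 bases, was at 24.5, 21.99 and 0 CPM in the 20 °C libraries and at 0, 31.8 and 17.9 CPM in the 15 °C libraries. Its neighbour TRINITY_DN130432_c0_g1, also of 729 bases and one of the 180, was at 0, 0 and 28.8 CPM in the 20 °C libraries and at 26.2, 0 and 0 CPM in the 15 °C libraries. The 2 never occurred together, and their sum ran from 17.9 to 31.8 CPM. TRINITY_DN35366_c0_g2, of 1766 bases, was at 0, 53.9 and 35.3 CPM in the 20 °C libraries and at 46.7, 0 and 35.4 CPM in the 15 °C libraries. TRINITY_DN35366_c0_g1, of 1764 bases, was at 17.9 CPM in 20 °C replicate 1, at 41.1 CPM in 15 °C replicate 2 and at 0 elsewhere.

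A second kind, with 14 distinct pairs, had both sequences in some libraries and the neighbour alone in others. It includes TRINITY_DN129117_c1_g2, whose neighbour never exceeded 3.38 CPM. TRINITY_DN99238_c0_g1, of 1320 bases, was at 34.3, 0 and 0 CPM in the 20 °C libraries and at 31.9, 28.8 and 0 CPM in the 15 °C libraries. TRINITY_DN99238_c0_g2, also of 1320 bases, was at 24.1, 51.5 and 41.8 CPM in the 20 °C libraries and at 10.8, 25.9 and 42.1 CPM in the 15 °C libraries. The neighbour averaged 45.1 CPM over the 3 libraries without the member and 20.3 CPM over the 3 with it, while the sum stayed between 41.8 and 58.4 CPM. TRINITY_DN49086_c0_g1, of 1318 bases, was at 25.6, 34.3 and 0 CPM in the 20 °C libraries and at 0 in all 15 °C libraries. Its neighbour TRINITY_DN49086_c0_g2, of the same length, was at 29.2, 28.5 and 54.4 CPM in the 20 °C libraries and at 57.4, 66.7 and 47.1 CPM in the 15 °C libraries. In the 2 libraries with both, the member made up 46.7% and 54.6% of the sum. There were 81 cases of a pair and a library in which both were detected. In these the member's share of the sum had a median of 57.9%, with quartiles of 45.9% and 78.7%. The rule keeps the member at 10 CPM or more there and sets no limit on the neighbour, so this share is partly fixed. Some pairs made of 2 members are counted from both sides.

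A further 20 distinct pairs held 3 states, with libraries that had the member alone, the neighbour alone and both. TRINITY_DN121608_c0_g3, of 1677 bases, was at 22.6, 21.5 and 42.8 CPM in the 20 °C libraries and at 64.8, 0 and 0 CPM in the 15 °C libraries. TRINITY_DN121608_c0_g2, of 1679 bases, was at 36.7, 40.6 and 17.8 CPM in the 20 °C libraries and at 0, 55.0 and 53.8 CPM in the 15 °C libraries. The first made up 38.1%, 34.6% and 70.7% of the sum at 20 °C and 100%, 0% and 0% at 15 °C, while the sum ran from 53.8 to 64.8 CPM. A pair of the second kind had the steadiest sum. TRINITY_DN12033_c0_g1, of 1848 bases, was at 0, 0 and 18.5 CPM in the 20 °C libraries and at 19.8, 0 and 18.8 CPM in the 15 °C libraries. Its neighbour TRINITY_DN12033_c0_g2, of 1850 bases, was at 25.6, 23.4 and 5.13 CPM in the 20 °C libraries and at 5.37, 25.3 and 4.59 CPM in the 15 °C libraries. In every library that had this member it made up 78.3% to 80.4% of the sum, and the sum had the smallest spread of all 54, with a coefficient of variation of 4.28%.

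**Figure D3:**
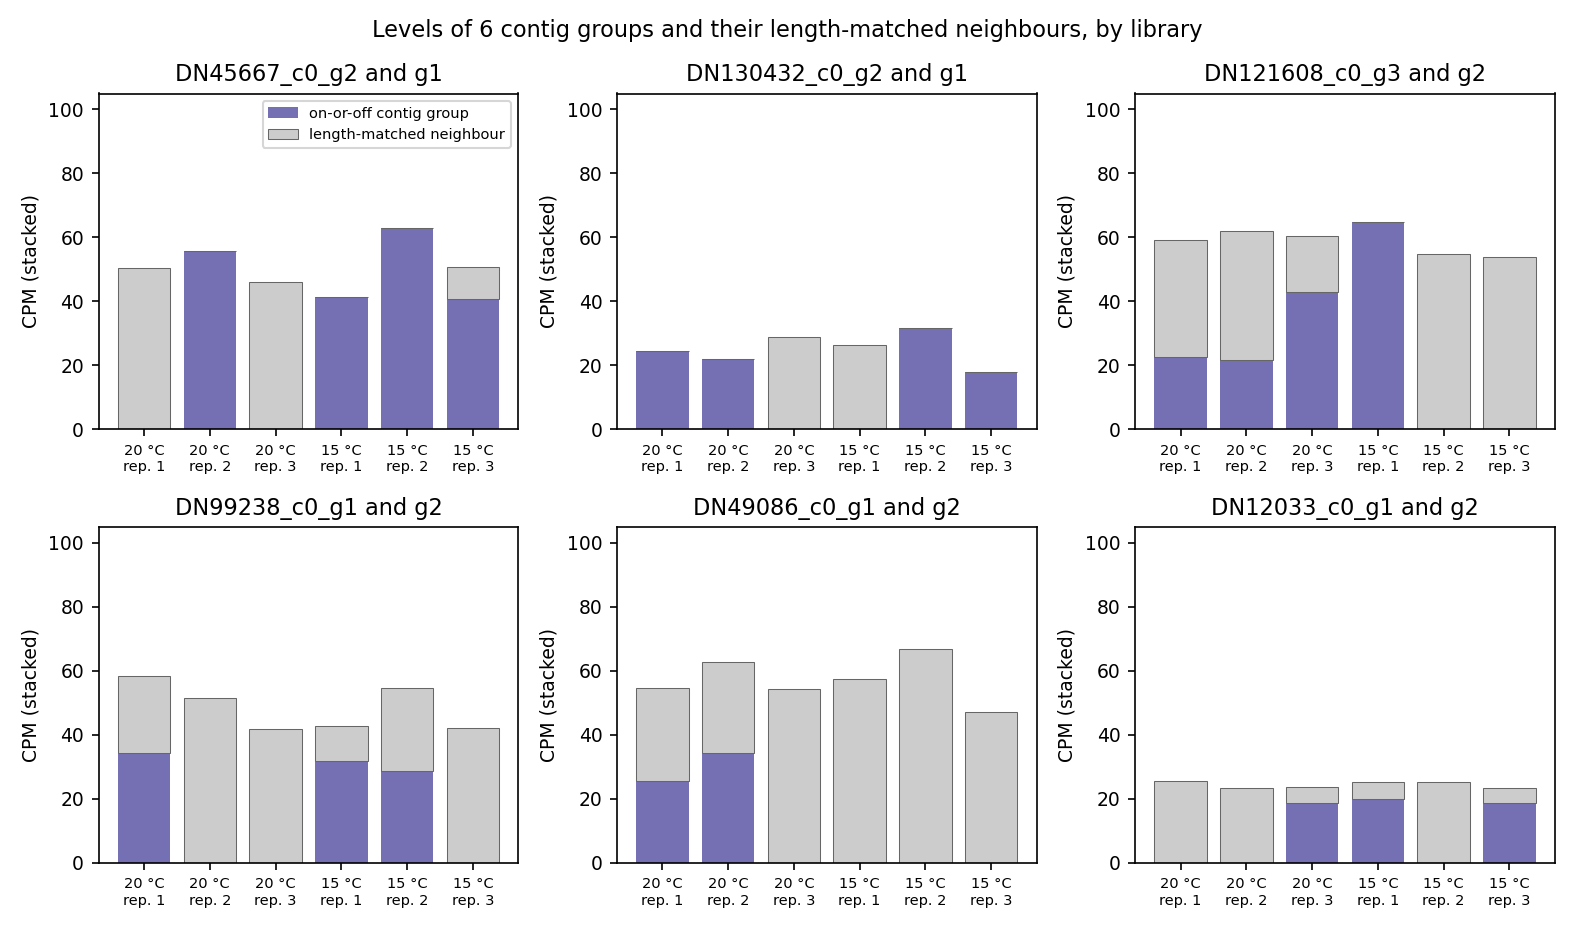
Stacked CPM of 6 contig groups (purple) and their length-matched neighbours (grey) in each library, chosen after their values were seen. The bars of a panel are of similar height while the colours change, as for DN12033_c0_g1 and g2, whose sum had a coefficient of variation of 4.28%.

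The sum of a member and its neighbour varied less between libraries than the member alone. The zeros required by the rule set the member's own spread, and adding a sequence detected in other libraries lowers it, so the difference is a description. The coefficient of variation over the 6 libraries had a median of 115% for the members with a length-matched neighbour, of 81.4% for the neighbours, and of 29.6% for the sums. For length-matched pairs among the 4403 contig groups on in all libraries, it was 28.2% for the contig group alone and 19.3% for the sum, lower than for the members' sums. The sum varied less than either of its parts in 50 of the 54 cases. Of the 49 distinct pairs, 26 had a sum with a coefficient of variation of 30% or less, and 14 of 20% or less. The summed level in the libraries with the member was a median of 1.16 times that in the libraries without it, with quartiles of 1.04 and 1.83 over the 52 cases with a count in the off libraries. The 2 levels were within 1.5 times of each other in 34 cases. The sum was over 2 times as high with the member in 12 cases, and in another 2 it was 0 wherever the member was off. In 11 distinct pairs at least 1 library had neither sequence, so the sum was at 0 there too.

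**Figure D4:**
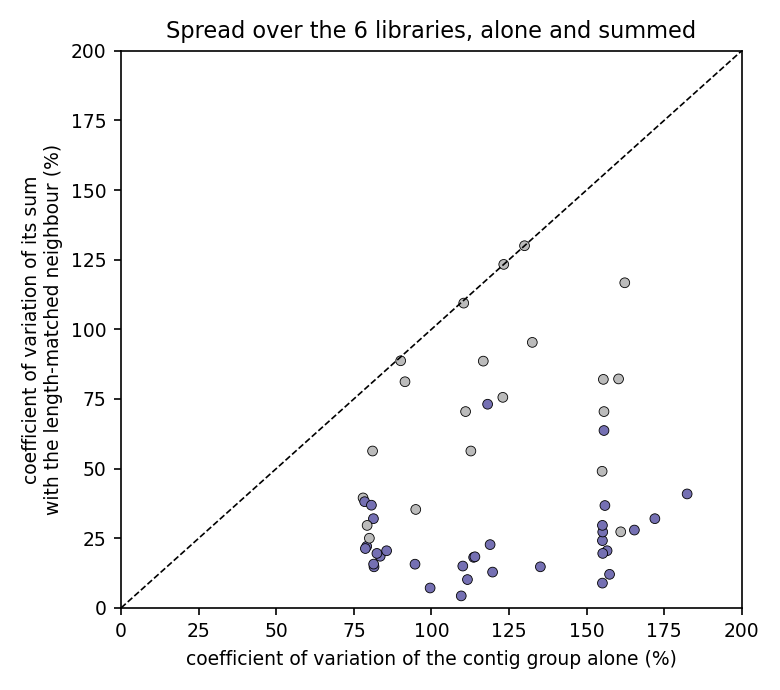
Coefficient of variation over the 6 libraries of each of the 54 contig groups alone (x axis) and of its sum with the length-matched neighbour (y axis). Purple points are the 33 whose neighbour was higher in every off library than in any on library, and most points lie below the dashed line of equal spread.

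Opposite levels were also counted over all other contig groups of the read cluster, with no condition on length or component. Such a partner was at 10 CPM or more in every off library of the member, and below the lowest of these levels in every on library. It was present for 46 of the 180 members. The lack of overlap is how a partner was defined, and every other contig group of the read cluster was searched for it. No share for other contig groups is given, so the count is a description. The partners include length-matched neighbours described above, such as that of TRINITY_DN99238_c0_g1, so the 2 counts overlap. TRINITY_DN136176_c3_g1, with 3 contigs of which the longest has 3195 bases, had levels of 73.4, 0 and 61.3 CPM in the 20 °C libraries and of 74.9, 0 and 0 CPM in the 15 °C libraries. TRINITY_DN136176_c4_g2, of up to 3162 bases in another component, was at 18.1, 129 and 13.8 CPM in the 20 °C libraries and at 8.40, 131 and 121 CPM in the 15 °C libraries. The levels of TRINITY_DN136176_c4_g2 were thus above 120 CPM in the 3 libraries without the member and under 20 CPM in the 3 with it. TRINITY_DN139894_c3_g2, of 1084 bases, was at 0, 66.2 and 74.4 CPM in the 20 °C libraries and at 75.6, 0 and 0 CPM in the 15 °C libraries. TRINITY_DN139894_c4_g2, of 1459 bases, was at 157, 69.8 and 22.1 CPM in the 20 °C libraries and at 85.3, 177 and 107 CPM in the 15 °C libraries. It thus stayed high in some libraries that had the member. For TRINITY_DN130696_c7_g4, described above, the partner TRINITY_DN130696_c8_g1 differed less, at 13.0, 28.5 and 14.0 CPM in the 20 °C libraries and 9.40, 21 and 15.4 CPM in the 15 °C libraries.

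The 7 read clusters that held more than 1 member each held 2, and both were of the same component in all 7. In 2 of these clusters the off libraries of 1 member were exactly the on libraries of the other, and in 0 were the patterns identical. TRINITY_DN45667_c0_g2, of 1332 bases, was at 0, 55.8 and 0 CPM in the 20 °C libraries and at 41.3, 62.9 and 40.9 CPM in the 15 °C libraries. TRINITY_DN45667_c0_g1, of 1334 bases, was at 50.5, 0 and 46.0 CPM in the 20 °C libraries and at 0, 0 and 10.01 CPM in the 15 °C libraries. Only 15 °C replicate 3 had both, and the sum had a coefficient of variation of 14.7%. It was 19.5% and 32.0% in the 2 clusters with exactly opposite patterns, TRINITY_DN130432 and TRINITY_DN35366. Other clusters had less steady sums, at 70.5% for TRINITY_DN76603 and 56.3% for TRINITY_DN139489, each with 1 library that had neither member. TRINITY_DN71970_c0_g1 and TRINITY_DN71970_c0_g2 were both on in 3 libraries and both off in 2. They correlated at 0.75, and their sum was at 88.6%.

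Other members were off together with their whole read cluster. In 87 members every contig group of the read cluster had a rounded count of 0 in every off library. They were the 81 alone in it and 6 whose neighbours were at 0 there too. For the 81 this follows from their own zeros, and 76 of their 218 zeros, 34.9%, were fractional estimates that rounded to 0. The share was 24.4% in members with a length-matched neighbour and 23.8% in those with other neighbours. Whether members alone in their read cluster have a similar contig in another cluster was not tested. In 62 members the neighbours summed to 10 CPM or more in every off library, and 31 lay between. Members alone in their read cluster were longer, with a median of 1597 bases, than those with a length-matched neighbour, with 740 bases, at a similar median on level of 22.04 and 20.27 CPM. Of the 17 members at 0 in 20 °C replicate 2 and 15 °C replicate 2, 12 were alone and 0 had a length-matched neighbour. Of the 15 at 0 in 20 °C replicate 3 and 15 °C replicate 1, 8 were alone and 5 had a length-matched neighbour. TRINITY_DN129117_c1_g2, of 724 bases, shows a member whose length-matched neighbour stayed low in every library. It was at 0, 70.6 and 135 CPM in the 20 °C libraries and at 0, 185 and 201 CPM in the 15 °C libraries, and its neighbour of 714 bases never exceeded 3.38 CPM. This contig group was chosen for description after its values were seen.

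Embryonic temperature, which the rule did not use, was compared over libraries. The zeros and levels that the rule did use enter every value compared. The values therefore describe the libraries, and their p-values are no result about temperature. Members on per library numbered 125, 93 and 99 at 20 °C and 109, 74 and 76 at 15 °C. The mean was 105.7 ± 17.0 in 20 °C libraries and 86.3 ± 19.7 in 15 °C libraries (SD, n = 3 each). The difference was 19.3 (two-sided exact permutation p = 0.3, where 3 against 3 allows no p below 0.1). The share of counts in the members averaged 0.330% ± 0.0501 in 20 °C libraries and 0.269% ± 0.0983 in 15 °C libraries (SD, n = 3 each), a difference of 0.0609 percentage points (two-sided exact permutation p = 0.4). Of the 82 members at 0 in 2 libraries, 19 were off in 15 °C libraries only and 4 in 20 °C libraries only. Of these 19, 11 were off in 15 °C replicates 2 and 3, the deepest and the shallowest library. Of the 46 on in 2 libraries, 8 were on in 20 °C libraries only and 5 in 15 °C libraries only. Of the 52 at 0 in 3 libraries, 2 were on in the 20 °C libraries only and 0 in the 15 °C libraries only. No share over all contig groups is given beside these counts, and they were not tested.

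No member passed the temperature test. By the quasi-likelihood test of edgeR with Benjamini-Hochberg adjustment over 31870 contig groups, 0 members had an adjusted p under 0.05, where 0% of all tested contig groups did. The filter on low counts kept 134 members and left out the 46 on in 2 libraries only. At an unadjusted p under 0.05 there were 2 members, or 1.49% of those tested, near the 1.94% of all contig groups, and both were higher at 20 °C. DESeq2 called the same 2, where 0.16% of all contig groups were called. With no filter on low counts edgeR called 14 members, against 0.0653% of all contig groups, and 12 of the 14 were on in 2 libraries only. The 14 split into 9 that were higher at 20 °C and 5 that were lower. Fitted means were higher at 20 °C in 79 of the 134 and lower in 55, with a median log2 fold change of 0.23, against 0.03 over all contig groups. The median standard error of the log2 fold change was 1.93 for members and 0.65 for all contig groups. Without 15 °C replicate 1, 43 of 158 members, 27.2%, had an unadjusted p under 0.05, of which 41 were higher at 20 °C, against 4.78% of all contig groups, and 0 passed the adjustment. The zeros that chose the members enter all these tests. The calls by DESeq2 or without a filter, and the share without 15 °C replicate 1, are therefore no result about temperature.

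The 2 members on in all 20 °C libraries and in no 15 °C library were of modest level. TRINITY_DN166199_c0_g1, a contig of 428 bases alone in its read cluster, was at 25.2, 45.0 and 22.9 CPM in the 20 °C libraries and at 0 in each 15 °C library. It averaged 31.0 ± 12.1 CPM at 20 °C (SD, n = 3) and was at least 189.5-fold higher than the 3 counts that a count of 0 allows over the 15 °C libraries (0.164 CPM). TRINITY_DN36587_c0_g2, of 1116 bases, was at 20.0, 17.9 and 16.2 CPM in the 20 °C libraries and at 0 in each 15 °C library. By the same bound, its level was at least 110-fold higher where it was on. Its length-matched neighbour TRINITY_DN36587_c0_g1, also of 1116 bases, was at 0 in all 20 °C libraries and at 0, 0.232 and 0 CPM in the 15 °C libraries. Their unadjusted p-values in edgeR were 4.90e-05 and 8.80e-05, and the adjusted p was 1.00 for both. With limma on log2(TPM + 0.5), TRINITY_DN166199_c0_g1 had an adjusted p of 0.0114, the only call among all contig groups (0.00314%), and TRINITY_DN36587_c0_g2 of 0.0864. The zeros that chose these 2 members enter all of these p-values and both fold bounds. The limma call and the bounds are therefore no result about temperature.

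Among the 134 members that passed the filter, those lower at 20 °C with the smallest p-values did not reach an unadjusted p of 0.05. TRINITY_DN127308_c2_g2, of 261 bases, was at 16.2, 0 and 0 CPM in the 20 °C libraries and at 86.3, 14.6 and 0 CPM in the 15 °C libraries, with an unadjusted p of 0.275 in edgeR. TRINITY_DN72981_c0_g2, of 4009 bases, was at 0, 17.9 and 0 CPM in the 20 °C libraries and at 15.5, 17.8 and 12.5 CPM in the 15 °C libraries, with an unadjusted p of 0.379 in edgeR. The temperatures overlapped in both. In the 5 lower ones that edgeR called when no filter was used, every 20 °C library was at 0, and they were on in 2 of the 15 °C libraries. They are TRINITY_DN76603_c0_g1, TRINITY_DN116508_c0_g1, TRINITY_DN126867_c0_g1, TRINITY_DN155926_c0_g1 and TRINITY_DN18344_c0_g1, named after their values were seen. TRINITY_DN76603_c0_g1, of 502 bases and the highest of them, was at 0 in each 20 °C library and at 0, 30.95 and 26.7 CPM in the 15 °C libraries.

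The 3 libraries of 1 temperature lay wholly above those of the other in 5 of the 180 members, 2.78%. All 5 were higher at 20 °C. Over the tested contig groups the share was 8.6%, with 4.95% higher and 3.65% lower at 20 °C. The shares cannot be compared, since a member with zeros at both temperatures cannot be without overlap, and 25 of the 180 had a pattern that could be. Besides those on at 20 °C only, these were TRINITY_DN66108_c0_g1, TRINITY_DN23241_c0_g1 and TRINITY_DN110018_c0_g1, named after their values were seen. In these the lowest 20 °C library lay close above the highest 15 °C library. TRINITY_DN66108_c0_g1, of 1661 bases, was at 20.2, 18.6 and 19.1 CPM in the 20 °C libraries and at 0, 0 and 18.4 CPM in the 15 °C libraries. TRINITY_DN23241_c0_g1 had 14.2 CPM or more at 20 °C and at most 10.75 CPM at 15 °C, and TRINITY_DN110018_c0_g1 had 13.05 CPM or more at 20 °C and at most 11.66 CPM at 15 °C.

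**Figure D5:**
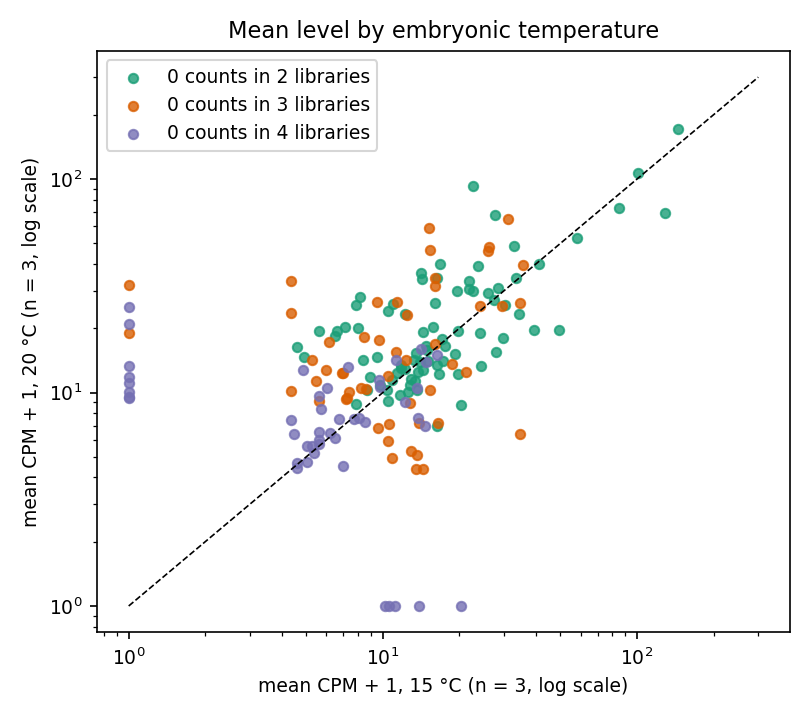
Mean CPM + 1 of each of the 180 contig groups at 20 °C (y axis, n = 3) and 15 °C (x axis, n = 3), both on log scales, coloured by the number of libraries at 0. Points on the left edge (10 contig groups) were on in 20 °C libraries only, points on the bottom edge (5) in 15 °C libraries only, and the rest lie on both sides of the dashed line of equal means.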

How the data were processed

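Per the labels' protocols, total RNA of the homogenised tissue was isolated by a Qiagen kit, and a stranded mRNA kit gave the libraries. The submitters' processing notes name Trimmomatic and kallisto without versions. Per the file headers, the authors deposited a table for each library, in which all 347710 contigs have an estimated count and a TPM. Estimated counts are not normalised, and reads of similar contigs are divided between them. Contig names follow the pattern of the Trinity assembler, and the assembly is not given in the sources used here. No sequence or genome position is therefore shown.

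Sums of estimated counts per contig group were rounded. The filterByExpr function (about 10 counts in at least 3 libraries, total of at least 15) chose the contig groups to test. They were scaled by TMM and compared, 20 °C against 15 °C, in R 4.3.3 with edgeR 4.0.16 (quasi-likelihood, robust), which was also tested on simulated data. A called contig group has a Benjamini-Hochberg adjusted p under 0.05. Alternatives were RLE factors, other filters, DESeq2 1.42.0, log2 TPM with pseudocounts of 0.5 or 0.05 in limma 3.58.1, a replicate block and leaving out each library. The members, lists and neighbour measures were chosen with earlier results of these data known. Members named in the text are the 2 of highest mean CPM for each number of zeros. Also named are those on in all libraries of 1 temperature and in none of the other, or else with the smallest p in that direction. The 4 of highest mean CPM with an opposite partner are named too. The 7 read clusters with most members tied at 2 each, and not all of them are named. Length-matched pairs named were chosen after their values were seen.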

Additional observations from a re-analysis of the deposited data

How the results depend on the processing

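The count of members called between temperatures, 0 in edgeR, was also 0 with RLE factors, with a filter at a mean count of 10 and without any 1 library. It moved to 14 without a filter (0.0653% of all contig groups called there, 12 of the 14 on in 2 libraries only), to 2 with DESeq2, and to 1 with limma at either pseudocount, 0.5 or 0.05. The count at an unadjusted p under 0.05 was 2 in edgeR, 1.49% of members tested against 1.94% of all contig groups. It moved to 17 without a filter (9.44% against 3.17%) and 15 with a filter at a mean count of 10 (8.33% against 2.12%). With limma it was 16 at a pseudocount of 0.5 (11.94% against 3.50%) and 12 at 0.05 (8.955% against 2.77%). With 1 library left out it ran from 6 to 43. Without 20 °C replicates 1, 2 and 3 it was 12 (7.55% against 2.13%), 17 (10.12% against 2.64%) and 10 (6.10% against 1.84%). Without 15 °C replicates 1, 2 and 3 it was 43 (27.2% against 4.78%), 6 (3.61% against 2.75%) and 20 (11.56% against 2.04%). The zeros that chose the members enter all these tests, so the counts and shares are no result about temperature. The count without overlap between temperatures, 5, was 7 with TPM and ran from 11 to 24, at 11, 24 and 14 without 20 °C replicates 1, 2 and 3 and at 23, 14 and 13 without 15 °C replicates 1, 2 and 3. With 1 library left out, fewer libraries were compared, and a lack of overlap is easier to reach. The share over all contig groups is not given for TPM or for these runs, so the counts are no result about the members. The cause was not tested further. With the replicate number as a replicate block, 0 members passed and 2 had an unadjusted p under 0.05 (1.49% against 1.48%). Deviations of same-numbered libraries correlated at 0.08, 0.20 and 0.00, so the numbers were not treated as pairs. For 1 of the 3 numbers, replicate 2, each library correlated best with its own number. The libraries of replicate 2 are also those at 0 in the most frequent pattern.

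The rule found 580 contig groups at 5 CPM or more and 51 at 20 CPM or more. It found 205 with counts of 2 or fewer taken as 0, 176 on TMM-normalized CPM and 189 after thinning every library to the smallest, of which 180, 170 and 166 were among the 180. The difference in members on per library stayed positive in every alternative run and ran from 9.67 to 30.7 with 1 library left out. The two-sided exact permutation p was then 0.2 to 0.6, where 2 against 3 allows no p below 0.2. These runs share libraries and are not separate support, and the zeros that chose the members enter them all. The count of length-matched neighbours was 48 to 59 with other length limits or read clusters. Those higher where the member was off were 48 of 54 after thinning and 50 of 54 with TPM. The read cluster was on in 78 members at 1 CPM and in 45 by component, and an opposite partner was present in 57 and 32.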
